A study of Mus musculus with 7 samples.

Results

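miR-22 is a conserved microRNA (miRNA) made from a single hairpin, Mir22, and its 2 mature arms, miR-22-3p and miR-22-5p, are described here in Ago2-bound small RNA from mouse plasma. Both arms were found by name among the 640 mature miRNAs counted, so they are 2 of 640 members. As background, a miRNA guides an Argonaute protein such as Ago2 to messenger RNAs that pair with its seed, bases 2 to 8, and lowers their output. miR-22-3p is broadly expressed, is known from heart, blood and neurons, and is known in brain for targeting the P2X7 receptor, an ATP-gated channel of the inflammatory response, and it has been described as neuroprotective in epilepsy. Counts of plasma miRNAs do not measure protection, so that description was not tested here. The study's own enrichment list gives miR-22-3p as ubiquitous by tissue and as neuronal by brain cell.

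Each library came from 1 pool of plasma from 10 C57BL/6JOlaHsd mice, given as c57 in the labels. Control mice had PBS injected into the amygdala and were sampled after 4 h, 8 h and 24 h. Mice with status epilepticus (SE) had kainic acid, an agonist of glutamate receptors, injected there, and were sampled at those times and after 2 weeks. The animals were adult males, SE was curtailed with midazolam or lorazepam, and plasma was screened for haemolysis. The 2-week SE library had no control library of its own, which failed quality control, and was set against control 24 h. There was 1 library per condition, so no difference between SE and its control has a replicate check. In pooled plasma, release from more cells and release of more RNA per cell cannot be told apart.

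Control 4 h, 8 h and 24 h had total counts of 2043220, 3529563 and 3412752, with 5405357, 3166964, 3718313 and 2541062 in the SE libraries in order of time. Control 4 h stood apart from the others, with 232 miRNAs that had at least 1 count against 314 to 399 in the other libraries. Low counts gathered around 102 in control 4 h and around 33.1 to 60.2 in the others. Levels are given as counts per 1000000 counts (CPM) on library sizes adjusted by the trimmed mean of M-values (TMM) unless plain totals are named.

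The Mir22 hairpin is encoded on the plus strand of chromosome 11 (bases 75463716 to 75463810 of GRCm38), inside exon 2 of Mir22hg, its long non-coding host gene. The same stretch is exon 2 of 1 transcript of the protein-coding gene Tlcd2, with no coding sequence or UTR annotated over it. The hairpin is shown because its 2 arms differed widely in count. It is the RefSeq sequence of GRCm38.p6, 95 bases long, with the 5p arm and then the 3p arm in capitals:
Mir22 hairpin: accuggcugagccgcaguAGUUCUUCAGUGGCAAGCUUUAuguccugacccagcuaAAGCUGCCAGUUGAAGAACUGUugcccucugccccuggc
The mature arms, each of 22 bases with the seed in capitals, are these:
miR-22-3p: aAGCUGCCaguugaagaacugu
miR-22-5p: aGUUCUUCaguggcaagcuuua

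A mature sequence was matched by name for 551 of the 640 miRNAs counted. None of the others shared the seed of miR-22-3p, nor its bases 2 to 7, and no other mature mouse miRNA of the 1679 in the RefSeq table shared the seed. The alignment used by the authors tolerated 2 mismatched nucleotides, and 1 counted miRNA came that close to miR-22-3p. It was miR-3966 (chromosome 10, 97423493 to 97423513, plus strand), which differed over 21 aligned bases by U11C and A14U, with positions counted from the 5′ end of miR-22-3p. It is shown because reads of one could have been counted as the other, with the differing bases in capitals:
miR-3966: agcugccagCugUagaacugu
It had 1 count in SE 8 h and none in the other 6 libraries, against 393795 counts of miR-22-3p over all 7. Its share of the 2 together was 0.000254%.

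miR-22-3p was one of the most abundant miRNAs in every library. Control 4 h held 29090 counts of it, control 8 h 66883 and control 24 h 54018. The SE libraries held 88084 counts after 4 h, 71416 after 8 h, 39954 after 24 h and 44350 after 2 weeks. Ranked by count among all miRNAs of a library it was 4th in control 4 h and 8 h, 6th in control 24 h, 6th, 5th and 6th in SE 4 h, 8 h and 24 h, and 7th in SE 2 weeks. By mean TMM-scaled CPM over the 7 libraries it was 6th of 640.

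As a share of all counts, miR-22-3p held 1.42% of control 4 h (95% Wilson interval 1.41 to 1.44), 1.89% of control 8 h (1.88 to 1.91) and 1.58% of control 24 h (1.57 to 1.60). In SE it held 1.63% at 4 h (1.62 to 1.64), 2.26% at 8 h (2.24 to 2.27), 1.07% at 24 h (1.06 to 1.09) and 1.75% at 2 weeks (1.73 to 1.76). The highest share was in SE 8 h and the lowest in SE 24 h. These intervals, and the floors given below, cover counting error only, since reads were not counted by molecular identifiers.

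Most of the counts behind these shares were of 1 miRNA, whose part in their differences was not tested. miR-486b-5p, an erythroid miRNA, took 76.1% of the counts in control 4 h and 76.1% in SE 24 h, the 2 libraries where the share of miR-22-3p was lowest, and 62.5% to 67.5% in the other 5. Control 8 h and SE 4 h both held 67.5% of it, with 1.89% and 1.63% of miR-22-3p. Of the counts left without miR-486b-5p, miR-22-3p held 5.95%, 5.83% and 4.80% in control 4 h, 8 h and 24 h, and 5.02%, 6.02%, 4.49% and 4.75% in SE in order of time. On that base the highest library was 1.34 times the lowest, against 2.10 times on plain totals.

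On TMM-adjusted library sizes control 4 h had 16694 CPM of miR-22-3p, control 8 h 15510.3 and control 24 h 13689. SE 4 h had 20687 CPM, SE 8 h 19609, SE 24 h 14247 and SE 2 weeks 14366. The 2 early SE libraries lay above all 3 controls and the 2 later ones within the control range. The mean was 15298 ± 1514 CPM in control (SD, n = 3 time-points) and 17227 ± 3402 in SE (SD, n = 4 time-points), and the groups overlapped.

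**Figure D1:**
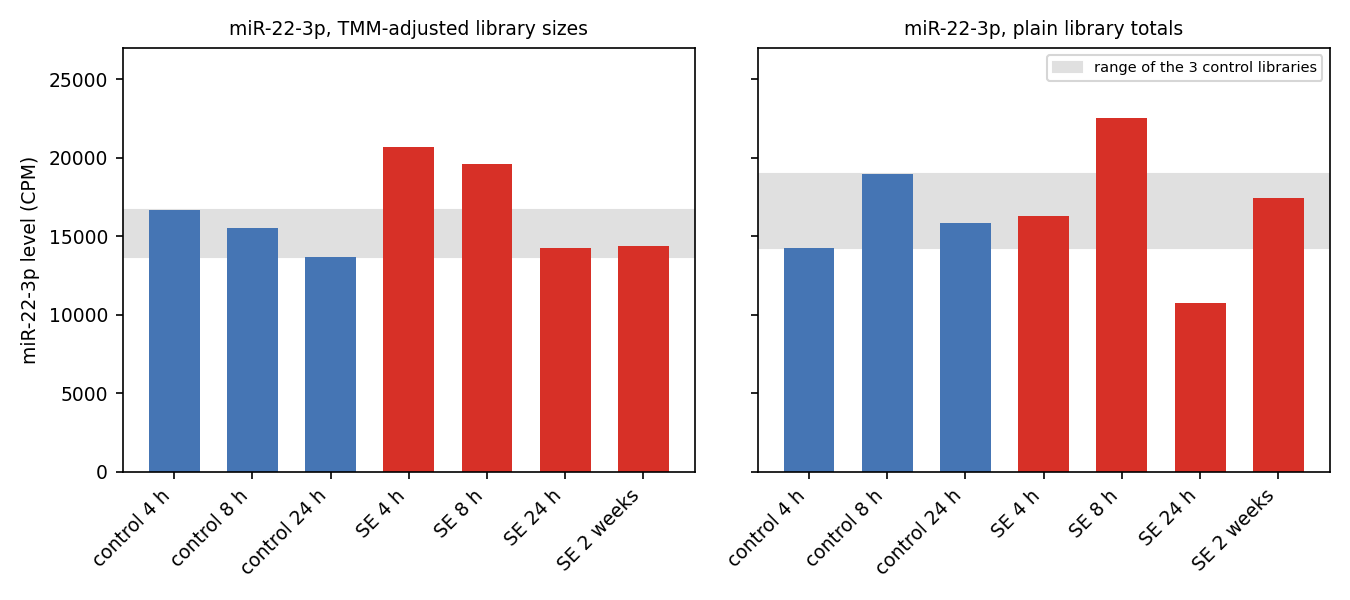
Level of miR-22-3p in each of the 7 libraries (y axis, CPM) on TMM-adjusted library sizes (left) and on plain library totals (right), with controls in blue, SE in red and the range of the 3 controls shaded. SE 4 h and SE 8 h lie above the control range on the left, while on the right SE 8 h lies above it and SE 24 h, at 10745 CPM, below it.

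Set against the control range of 13689 to 16694 CPM, SE 4 h was 1.24 times and SE 8 h 1.17 times the highest control. With TMM such a position was common. Of the 134 miRNAs with a mean of at least 50 CPM of plain totals over the 7 libraries, 50 (37.3%) lay above their control range in SE 4 h and 38 (28.4%) in SE 8 h. In SE 24 h 37 of them (27.6%) and in SE 2 weeks 35 (26.1%) were above, while miR-22-3p was inside at both times. Without control 4 h, the library that stood apart, the control range was 13689 to 15510.3 CPM and the 4 positions did not change.

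The position in SE 4 h depended on how the libraries were scaled. On plain totals miR-22-3p had 16296 CPM in SE 4 h, inside a control range of 14237 to 18949. SE 8 h was above that range at 22550.3 CPM and SE 24 h below it at 10745. With DESeq2's size factors SE 4 h (18607 CPM) and SE 8 h (20609 CPM) were again above the controls (13261 to 17321). With totals that leave out miR-486b-5p, SE 8 h alone was above the controls, by a factor of 1.01, and SE 24 h and SE 2 weeks were below. SE 8 h was thus above the controls under all 4 scalings. The share of the 134 miRNAs above their control range also shifted. In SE 4 h it was 15.7% on plain totals, 28.4% with DESeq2's size factors and 12.7% on totals without miR-486b-5p, and in SE 8 h 30.6%, 28.4% and 22.4%. In SE 24 h 40.3% were below their range on plain totals, as miR-22-3p was, and without miR-486b-5p 29.1% were below in SE 24 h and 28.4% in SE 2 weeks.

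Every SE library was then tested against its control with the exact test of edgeR. The biological coefficient of variation (BCV), the spread assumed between replicates, was fixed at 0.1 because none could be measured from 1 library. The test took miRNAs that reached 50 CPM in 1 or both libraries, and those at least 1.5-fold apart with p below 0.05, unadjusted, were called. What is compared is the reads of a pair of libraries rather than the conditions. miR-22-3p was not called at any time-point. Its log2 fold change in SE was 0.31 at 4 h (1.24-fold, edgeR exact test p = 0.13), 0.34 at 8 h (1.26-fold, p = 0.098), 0.06 at 24 h (1.04-fold, p = 0.78) and 0.07 at 2 weeks (1.05-fold, p = 0.73). The comparisons at 24 h and 2 weeks share their control library.

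Many other miRNAs were called in the same comparisons. Of 189 miRNAs tested 67.2% were called at 4 h (61 with more and 66 with less in SE), 50% of 154 at 8 h (54 and 23), 44.7% of 141 at 24 h (35 and 28) and 31.7% of 145 at 2 weeks (27 and 19). The filter admits miRNAs that reached 50 CPM only in the library where they were high, which were 22 of the 61 higher and 44 of the 66 lower calls at 4 h, and 26 of 54 and 8 of 23 at 8 h. Among those with 50 CPM in both libraries, 39 were higher and 22 lower of 121 at 4 h and 28 and 15 of 119 at 8 h, and in the later comparisons 21 and 14 of 112 and 10 and 11 of 117. These counts rest on the BCV and, at 4 h, on the control. At 4 h 58 were called at BCV 0.4, 80 against the 3 controls pooled and 76 against control 8 h and 24 h pooled, in place of 127. At BCV 0.4 the later time-points had 23, 19 and 8 called, in place of 77, 63 and 46. Against the 3 controls pooled they had 82, 59 and 55. The absolute log2 fold change of miR-22-3p was exceeded by that of 157 miRNAs at 4 h, by 109 at 8 h and by 129 at each later time-point. The median absolute log2 fold change was 1.01 at 4 h and 0.60 at 8 h, and 0.52 and 0.34 at the later time-points.

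**Figure D2:**
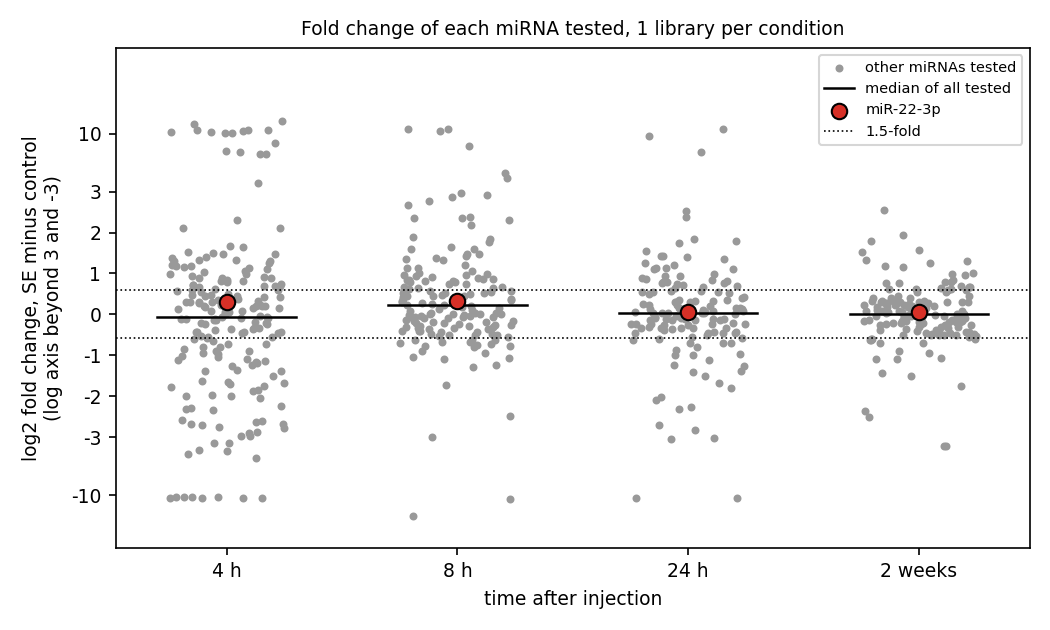
Log2 fold change, SE minus control (y axis, linear between -3 and 3 and logarithmic beyond), of every miRNA tested at each time-point (x axis), with miR-22-3p in red, the median of all tested as a bar and 1.5-fold dotted. Points near 10 and -10 are miRNAs with almost no counts in 1 library, whose fitted size is not a measurement, and miR-22-3p lies between the dotted lines at all 4 time-points.

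The fold change of miR-22-3p shifted with the scaling, as the median of all miRNAs did. At 24 h the median log2 difference was 0.04 with TMM and -0.58 on plain totals over the 138 tested miRNAs with a count in both libraries, and that of miR-22-3p was 0.06 and -0.56. A scaling moves all miRNAs of a pair alike, so the distance of miR-22-3p from the median is fixed, and at 24 h it was 0.02 higher in SE. At 4 h it was 0.37 above the median of 171 miRNAs, at 8 h 0.12 above that of 149 and at 2 weeks 0.06 above that of 145.

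The control libraries differed among themselves by about as much. miR-22-3p had a log2 difference of -0.11 between control 8 h and control 4 h, -0.29 between control 24 h and control 4 h and -0.18 between control 24 h and control 8 h, and edgeR's exact test called none of these. In those pairs of controls 59.3%, 69.6% and 45.4% of the miRNAs tested were called. Between SE libraries the largest log2 difference of miR-22-3p was -0.54, from SE 4 h to SE 24 h.

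The 3 SE libraries of 4 h, 8 h and 24 h were also compared with the 3 controls by edgeR's quasi-likelihood test, in which each side holds time-points in place of replicates. miR-22-3p had a log2 fold change of 0.23 in SE (1.17-fold, edgeR adjusted p = 0.81), and its mean log2 CPM was 14.07 ± 0.31 in SE and 13.86 ± 0.17 in control (SD, n = 3 each). It was higher in SE at 3 of 3 time-points with TMM over all libraries. The direction turned at 4 h on totals without miR-486b-5p (-0.25), and at 24 h on those totals (-0.094), on plain totals (-0.56) and with TMM over the pair (-4.2e-05). On plain totals the comparison of 3 against 3 gave a log2 fold change of 0.017 (edgeR adjusted p = 0.99). None of the 136 miRNAs tested (0%) had an adjusted p under 0.05, while 15 had an unadjusted p under 0.05 and DESeq2 gave 4 with an adjusted p under 0.05. The BCV was 0.563 over all these miRNAs and 0.247 for miR-22-3p.

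Across all 7 libraries miR-22-3p varied less than most of the abundant miRNAs. On the TMM scale its highest library was 1.51 times its lowest. Among the 101 miRNAs with at least 50 CPM of plain totals in all 7 libraries the median of this ratio was 2.38, and 5 miRNAs had a smaller one. They were miR-215-5p (1.32), miR-30d-5p (1.33), miR-423-5p (1.36), miR-328-3p (1.36) and miR-221-3p (1.39), of which miR-215-5p, at a mean of 8610.3 CPM, was the most abundant. The number of miRNAs with a smaller ratio was 10 with DESeq2's size factors, 20 on plain totals and 1 on totals without miR-486b-5p. Within the 4 SE libraries alone 23 miRNAs varied less than miR-22-3p with TMM, and within the 3 controls 11 did. On plain totals 50 varied less within the SE libraries and 50 more.

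On the TMM scale the levels of miR-22-3p were also set side by side by time of sampling. The 4 libraries of 4 h and 8 h, SE and control alike, lay between 15510.3 and 20687 CPM, and the 3 libraries of 24 h and 2 weeks between 13689 and 14366, with no overlap. Of the 134 miRNAs with a mean of at least 50 CPM, 15 (11.2%) were likewise higher in all 4 early libraries, and 23 were lower in all of them. The separation of miR-22-3p was also present with DESeq2's size factors and on totals without miR-486b-5p, and on plain totals the 2 sets overlapped. This grouping was chosen after the values were seen, and the later set holds 1 control library.

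The 3 miRNAs ranked just above miR-22-3p by mean CPM and the 3 just below are known from different tissues. let-7f-5p, a member of the let-7 family that is broadly expressed in adult tissue, was above it with a mean of 22901 CPM, and was higher in 6 of the 7 libraries. miR-143-3p, a smooth muscle miRNA (mean 17918 CPM), and miR-192-5p, an epithelial miRNA of gut, liver and kidney (16993 CPM), ranked next. Just below were miR-191-5p (12937 CPM), miR-181a-5p (11695 CPM), known from lymphocytes and brain, and miR-10a-5p (11543 CPM), encoded among the Hox genes. The means of miR-143-3p, miR-192-5p, miR-22-3p and miR-191-5p did not differ beyond their spread over libraries (SD of 10766, 4160.1, 2759 and 4639.9 CPM).

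Of these 6 neighbours, 4 were called higher in SE at 4 h with TMM, where 61 of all 189 miRNAs tested were higher and 67.2% were called in either direction. All 6 had at least 50 CPM in every library. Among miRNAs with 50 CPM in both libraries, 39 of 121 were higher at 4 h, with 50.4% called in either direction. At 8 h, 24 h and 2 weeks 36.1%, 31.3% and 17.9% of such miRNAs were called. miR-143-3p rose from 12938 to 41308 CPM, miR-10a-5p from 8191 to 20603, miR-181a-5p from 7995 to 15240.2 and miR-192-5p from 12050 to 20720.2. At 8 h miR-143-3p, miR-192-5p and miR-10a-5p were called higher, with log2 fold changes of 0.75, 0.74 and 0.80, and let-7f-5p lower (-0.76), beside 50% called of all miRNAs. At 24 h none of the 6 was called (44.7% of all) and at 2 weeks miR-143-3p was higher (0.64, 31.7% of all called). On totals without miR-486b-5p only miR-143-3p and miR-10a-5p at 4 h and let-7f-5p at 8 h of these changes were still at least 1.5-fold. On plain totals let-7f-5p (-0.73) and miR-191-5p (-0.84) were also at least 1.5-fold lower in SE at 24 h. The median of 138 miRNAs was -0.58 there. Whether any of these changes differed from that of miR-22-3p was not tested.

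Ratios of counts within a library do not depend on scaling. miR-22-3p had 1.90 and 1.64 counts per count of miR-191-5p in control 4 h and 8 h, and 2.04 and 2.19 in SE 4 h and 8 h. In control 24 h, SE 24 h and SE 2 weeks the ratio was 0.75, 0.91 and 0.74. miR-22-3p was thus the more abundant of the pair at 4 h and 8 h and the less abundant later, in SE and control alike. Against miR-192-5p its ratio was 1.39, 1.16 and 0.95 in control 4 h, 8 h and 24 h, and 1.00, 0.87, 0.69 and 0.94 in SE in order of time, lower in SE at 4 h, 8 h and 24 h and nearly equal to its control at 2 weeks.

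The miRNAs whose pattern over the 7 libraries was most like that of miR-22-3p were chosen by Pearson's r of log2 TMM-scaled CPM among 100 others with at least 50 CPM of plain totals in all libraries. They were miR-27b-3p (r = 0.95), miR-199b-3p (0.94), miR-148a-3p (0.91), miR-101a-3p (0.91) and miR-378a-3p (0.91). The median r over all 100 was -0.07, and the least alike was miR-425-5p (-0.89), which had 92.3 CPM in SE 4 h and 164 to 183 CPM in the 3 controls. These values are a description over 7 points that share their libraries and scaling.

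On the TMM scale used to choose them, all 5 had their highest level in SE 4 h, as miR-22-3p did. With the other 3 scalings the highest library of miR-22-3p was SE 8 h. miR-27b-3p, of the miR-23b cluster, had 8313, 5949.9 and 5746 CPM in control 4 h, 8 h and 24 h and 13514, 10507, 6081 and 6869.7 CPM in SE in order of time. Its range was wider than that of miR-22-3p, and it was called higher in SE at 4 h and 8 h. With plain totals, DESeq2's size factors and Spearman's rho, 3 of the 5 were again among the 5 most alike, and with totals that leave out miR-486b-5p 1 was. Without SE 4 h, and without SE 24 h, 2 of the 5 were.

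**Figure D3:**
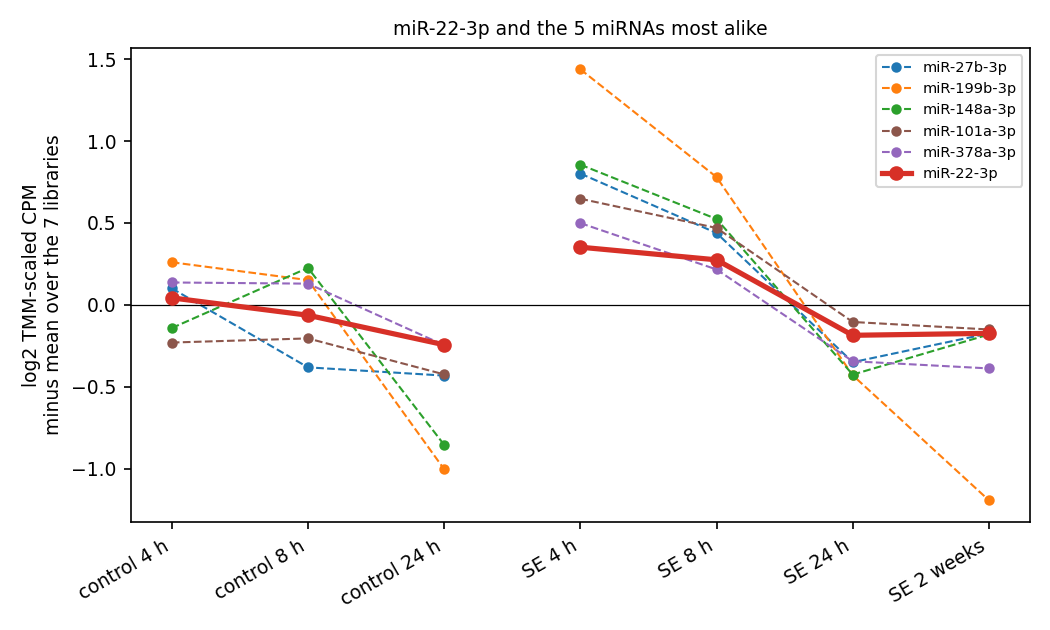
Log2 TMM-scaled CPM minus its mean over the 7 libraries (y axis) of miR-22-3p (thick red line) and the 5 miRNAs most alike, in the 3 control and 4 SE libraries (x axis); lines join libraries of 1 treatment. All 6 peak in SE 4 h on this scale, by which the 5 were chosen, and the swing of miR-22-3p is the smallest from its highest to its lowest library.

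By its classes in the study's enrichment list, miR-22-3p was the most abundant of the 57 miRNAs it assigns to neurons and second, after miR-192-5p, of the 20 listed as ubiquitous. The list as read here does not hold every miRNA that the study counted as neuronal. miR-22-3p alone held 31.6% of all neuronal counts, with a low of 27.8% (SE 24 h) and a high of 35.4% (SE 8 h). Neuronal miRNAs held 4.29%, 5.82% and 5.67% of control 4 h, 8 h and 24 h, and 4.90%, 6.36%, 3.87% and 5.82% of SE in order of time. Without miR-22-3p they held 2.86%, 3.93% and 4.08% in control and 3.27%, 4.11%, 2.79% and 4.07% in SE. The next most abundant, let-7i-5p (8376 CPM) and miR-107-3p (7756 CPM), were the closest of the other 56.

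Of the other 56 neuronal miRNAs those that reached 50 CPM in 1 or both libraries were tested with TMM. A miRNA that passed this filter only through the library where it was high had to differ, so such calls are counted apart. At 4 h 8 of 28 were called higher and 9 lower in SE, beside 67.2% of all miRNAs called, and of these 2 and 6 had reached 50 CPM only in the higher library. Of 28 at 8 h 15 were higher and 4 lower (50% called of all miRNAs), of which 9 and 1 had passed in that way. At 24 h 6 were higher and 7 lower of 22 (44.7% of all), 4 of each having passed in that way, and at 2 weeks 4 and 2 of 19 (31.7% of all), with 1 of each. Among those with 50 CPM in both libraries, 6 were higher and 3 lower of 20 at 4 h (50.4% called of all such miRNAs) and 6 and 3 of 18 at 8 h (36.1%). At 24 h 2 and 3 of 14 were (31.3%) and at 2 weeks 3 and 1 of 17 (17.9%). The other 19 ubiquitous miRNAs had 6 higher and 2 lower of 19 at 4 h (67.2% of all called) and 4 higher of 18 at 8 h (50%). They had 3 higher and 1 lower of 18 at 24 h (44.7%), and none called of 18 at 2 weeks (31.7%). At 4 h 1 of the higher and 1 of the lower calls had passed only through the higher library. Among the 17 with 50 CPM in both libraries 5 were higher and 1 lower, beside 50.4% of all such miRNAs. All those tested later had 50 CPM in both libraries, where 36.1%, 31.3% and 17.9% of all such miRNAs were called.

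Of the neuronal markers, miR-128-3p and miR-127-3p were counted in every library, and 2 others that define the cell type were scarcer. miR-124-3p, the most abundant miRNA of neurons, had 49 counts in SE 24 h and 0 in the other 6, where a count of 0 allows up to 0.555 CPM of the plain total in SE 4 h and up to 1.47 in control 4 h. miR-9-5p had 122, 111 and 1 counts in control 4 h, 8 h and 24 h and 136, 284, 111 and 0 in SE in order of time. It was called lower in SE at 4 h and higher at 8 h, beside 67.2% and 50% called of all miRNAs. Both times it had reached 50 CPM only in the library where it was high. Summed over the 6 neuronal markers, all of which were counted, the level was 1839, 1611 and 2317 CPM in control 4 h, 8 h and 24 h and 1925, 2259, 1997 and 2032 in SE in order of time. Most of it was miR-128-3p, and without it the sum was 767, 180.2 and 44.1 CPM in control and 592, 1078, 229 and 79.0 in SE. Most of that rest was miR-127-3p, with 640, 137 and 43.8 CPM in control and 505, 929, 158 and 67.1 in SE. miR-127-3p was called higher in SE at 8 h, 24 h and 2 weeks (50%, 44.7% and 31.7% called of all) but not at 4 h. At 24 h and 2 weeks it had reached 50 CPM only in SE. The part of neurons in the level of miR-22-3p was not tested.

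At least 1 marker of each blood cell list was counted in every library. Of the erythroid list all 7 were counted, and without miR-486b-5p, its most abundant, they summed to 18877, 13588 and 18596 CPM in control 4 h, 8 h and 24 h and to 15463, 11660.3, 16052 and 16382 in SE in order of time. miR-451a, the defining miRNA of red cells, had no more than 81 counts in any library, and miR-144-3p had 0 in control 4 h and 599 to 1634 counts in the others. In control 4 h miR-451a had 3 counts and miR-144-5p had 1. miR-486a-5p had 1 count, in SE 24 h. Most of each erythroid sum without miR-486b-5p was miR-92a-3p and miR-16-5p, which had 15084 and 3791 CPM in control 4 h. By tissue, the study's list gives miR-92a-3p as liver and miR-16-5p as ubiquitous. The 5 leukocyte markers, led by miR-142a-5p, summed to 4689.8, 5807 and 10187 CPM in control and 7433, 5734, 9396 and 10029 in SE. On the TMM scale these sums were lower at 4 h and 8 h than later, the opposite order to miR-22-3p. On plain totals the early and later levels of miR-22-3p overlapped. The 5 platelet and endothelial markers, led by miR-126a-5p, summed to 1818, 2295 and 3334 CPM in control and 3230.3, 2656, 3331 and 2694 in SE. The sum was lowest in control 4 h, where miR-222-3p had 0 counts. None of these blood cells was tested as a source of miR-22-3p.

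Both members of the liver list were counted, miR-192-5p as one of the most abundant miRNAs. miR-122-5p, the defining liver miRNA, had 59 counts in SE 4 h, 55 in SE 2 weeks, 1 in SE 24 h and 0 in the other 4. Of 4 muscle and heart markers 1, miR-133a-3p, was among the miRNAs counted, with 888, 793 and 75.5 CPM in control 4 h, 8 h and 24 h and 1104, 1439, 180.1 and 116 in SE in order of time. Like miR-22-3p with TMM it was higher at 4 h and 8 h than later in both SE and control, and its part in that order was not tested. Of the glial list 3 of 4 were counted, led by miR-21a-5p, and they summed to 7570.1, 8944 and 13853 CPM in control and 10474.5, 9365, 12250.4 and 12591 in SE. Most of each sum was miR-21a-5p. Without it the sum was 952, 750 and 914 CPM in control and 1314, 1102, 559 and 755 in SE. The defining miR-219a-5p was not among the miRNAs counted.

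Of 14 other miRNAs that background knowledge links to epilepsy, none was as abundant as miR-22-3p. miR-181a-5p (mean 11695 CPM) and miR-21a-5p (9815 CPM), a miRNA of reactive glia, came closest. miR-128-3p, which restrains neuronal excitability, had a mean of 1573 CPM and miR-146a-5p, a regulator of innate immune signalling, 902. miR-203-3p (208 CPM) and miR-184-3p (208 CPM) followed, the latter with 6000 of its counts in control 8 h. The other 8, miR-134-5p, miR-138-5p, miR-139-5p, miR-155-5p, miR-34a-5p, miR-132-3p, miR-199a-5p and miR-124-3p, had means at least 379 times below that of miR-22-3p. Of the 14, 7 were tested at 4 h (1 higher and 2 lower in SE, beside 67.2% called of all), 9 at 8 h (3 and 1, beside 50%), 6 at 24 h (0 and 2, beside 44.7%) and 6 at 2 weeks (none called, beside 31.7%). Both lower calls at 4 h, all 4 calls at 8 h and 1 at 24 h were of miRNAs that had reached 50 CPM only in the library where they were high.

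The miRNAs encoded within 1000000 bases of Mir22 that were counted were far less abundant. miR-3971, downstream on the same strand, had 1 count, in control 24 h. Mir132 (75173682 to 75173747) and Mir212 (75173388 to 75173478), a pair induced by neuronal activity, lie on the same strand upstream of Mir22. miR-132-3p had 196, 169 and 38 counts in SE 4 h, 8 h and 24 h and none in SE 2 weeks or the 3 controls. miR-212-3p had 80, 0 and 56 counts in control 4 h, 8 h and 24 h and 65, 97, 32 and 0 in SE in order of time. miR-212-5p had 44 counts in SE 8 h and 0 in the other 6 libraries. The counts of miR-132-3p were thus seen in the acute SE libraries, those of miR-212-3p in both groups and those of miR-212-5p in 1 SE library. At 46.0, 46.4 and 13.6 CPM in SE 4 h, 8 h and 24 h, miR-132-3p stayed under the filter of 50 CPM and was not tested. Its 38 counts in SE 24 h were below 45.2, the value near which low counts of that library gathered.

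The other arm, miR-22-5p, was almost absent. It had 0, 55 and 62 counts in control 4 h, 8 h and 24 h and 20, 0, 38 and 2 in SE in order of time. Its highest plain level was 18.2 CPM in control 24 h (exact 95% interval 13.9 to 23.3), so it was under 50 CPM everywhere and entered no test. Over all libraries it had 177 counts, 0.0449% of both arms (Wilson interval 0.0388 to 0.0520), or 2225 counts of miR-22-3p for each.

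In single libraries the share of miR-22-5p among both arms was 0.0822% in control 8 h (Wilson interval 0.0631 to 0.107), 0.115% in control 24 h (0.0894 to 0.147), 0.0227% in SE 4 h (0.0147 to 0.0351) and 0.0950% in SE 24 h (0.0692 to 0.130). SE 2 weeks, with 2 counts, had 0.00451% (0.00124 to 0.0164). Control 4 h and SE 8 h had 0 counts, for which 3 counts would be 0.0103% and 0.00420% of the count of miR-22-3p. The SE shares overlapped the control shares, since both groups held a library at 0.

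Fold changes of miR-22-5p went in different directions. On plain totals SE 4 h was at least 2.52-fold higher than control 4 h, taking 3 counts for the 0 of the control, and SE 8 h was at least 16.4-fold lower than control 8 h on the same rule. The ratio of SE to control was 0.563 at 24 h (exact 95% interval 0.365 to 0.856) and 0.0433 at 2 weeks (0.00513 to 0.163). Divided by the value near which low counts of the library gathered, the counts of miR-22-5p came to 0.91 and 1.12 in control 8 h and 24 h, and to 0.53, 0.84 and 0.06 in SE 4 h, 24 h and 2 weeks. Its counts were thus near or below that value in every library. The fold bounds and intervals above cover the counting of reads only and do not take that value into account. What the value stands for was not tested.

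Other hairpins had minor arms that were as scarce. Of 63 hairpins with both arms counted and a mean of at least 50 CPM of plain totals in the more abundant arm, miR-22 had the 7th smallest share of the minor arm, and the median share was 2.40%. The 6 with smaller shares were miR-10b (0.00115%), miR-486b (0.00546%), miR-143 (0.0152%), miR-192 (0.0153%), let-7g (0.0219%) and miR-141 (0.0313%). In miR-10b, miR-486b, miR-143 and miR-192 the more abundant arm had a higher mean CPM than miR-22-3p. In miR-10a and miR-191 that arm had means of 11543 and 12937 CPM, and the minor arm shares were 0.0516% and 0.0783%. The shares were not adjusted for the level of the more abundant arm. The 3p arm was the more abundant in 30 of the 63, as in miR-22.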

How the data were processed

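Ago2 was immunoprecipitated from pooled plasma and its small RNA sequenced, in 1 library per condition. The authors size-selected trimmed reads, matched them to miRBase mouse miRNAs by BLASTn in Chimera with 2 mismatches tolerated, and deposited raw counts of reads per mature miRNA. The version of Chimera is not given in the sources used here.

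CPM, ranks, shares and ratios were computed in Python 3.11.15 (numpy 2.4.6, pandas 2.3.3, scipy 1.17.1, matplotlib 3.10.9). Tests used edgeR 4.0.16 (R 4.3.3, limma 3.58.1) with a prior count of 0.125, and DESeq2 1.42.0 as an alternative. TMM factors (0.754 to 1.22) were taken over 7 libraries, or over the 6 of the 3 against 3 test, which kept miRNAs reaching 50 CPM in 3 or more libraries and used Benjamini-Hochberg adjustment. Totals were 2043220 to 5405357 counts, and the floor of 3 counts was 0.555 to 1.47 CPM. The low-count value was the peak of a kernel density of log counts between 6 and 300 (bandwidth 0.15).

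The miRNAs named are both arms of miR-22, its 3 neighbours in rank on each side, the 5 most and 1 least alike, the most abundant members of the neuronal and ubiquitous lists, a list linked to epilepsy and markers of cell types. Those with a smaller range, a scarcer minor arm, a close sequence or a close gene were named after their values were seen. Members and lists were chosen with earlier results of these data known. Both edgeR tests were tested on simulated data. Alternatives were other scalings, filters, BCVs, controls and prior counts, a block on time-point and leaving out libraries. The data had been seen when the control range without control 4 h and the pool of control 8 h and 24 h were chosen. Quantitative PCR and tagged mice were not analysed here.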

Additional observations from a re-analysis of the deposited data

How the results depend on the processing

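miR-22-3p was not called in any of 35 alternative settings of the SE against control fold changes, where its largest change in either direction was 1.47-fold. Of these, 12 changed only the BCV or the prior count and could not turn it, and of the other 23, 14 kept their direction. The unadjusted p of edgeR's exact test was under 0.05 in 4, those against pooled controls at 4 h (in both ways) and 8 h, and plain totals at 24 h. The remaining 9 turned it. At 4 h the log2 fold change was -0.25 on totals without miR-486b-5p. At 24 h it was -0.56 on plain totals, -4.2e-05 with TMM over the pair, -0.094 without miR-486b-5p and -0.10 against the 3 controls pooled. At 2 weeks it was -0.014 without miR-486b-5p, -0.091 against the pooled controls, -0.22 against control 4 h and -0.11 against control 8 h. The cause was not tested beyond the shift of the median of all miRNAs with scaling. Against control 8 h and 24 h pooled, SE 4 h gave 0.50, a change under 1.5-fold. Over all miRNAs the number called at 4 h was 58 at BCV 0.4, 80 against the pooled controls, 76 against control 8 h and 24 h pooled and 310 with no filter. At BCV 0.4 it was 23, 19 and 8 at 8 h, 24 h and 2 weeks, with 26 at 2 weeks at BCV 0.2, and with no filter it was 257, 261 and 238. In the comparison of 3 against 3, DESeq2 called 4 miRNAs and edgeR with no filter 3. For miR-22-3p this comparison stayed above 0.05 in adjusted p in all 10 alternatives, with a log2 fold change of 0.017 on plain totals, 0.21 with time-point as a block and 0.13 to 0.44 when 1 library was left out. Pairs of a miRNA and an SE library outside the control range were 271 of 536, and 120 of 212 with a mean of at least 500 CPM. The rank of miR-22-3p was 6 over all and 1 among neuronal miRNAs. Pairing by time-point was done as the block. miR-22-5p stayed under the filter and no fold change of it was reported from a fit. Of the 2 arms, the floor of 3 counts was needed for miR-22-5p, which had 0 to 62 counts per library.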

Other observations

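Further ratios within a library set miR-22-3p beside miRNAs of blood cells and vessels, as values with no test. miR-22-3p had 4.40, 4.10 and 2.78 counts per count of miR-16-5p, an abundant miRNA of red cells, in control 4 h, 8 h and 24 h, and 4.38, 6.53, 2.82 and 3.92 in SE in order of time. Per count of miR-92a-3p, another red cell miRNA, it had 1.11, 1.64 and 1.05 in control and 2.03, 2.36, 1.38 and 1.16 in SE, higher in SE than in the control it was set against at all 4 time-points. The ratio to miR-486b-5p was 0.0187, 0.0281 and 0.0236 in control and 0.0241, 0.0361, 0.0141 and 0.0276 in SE. It was lower in SE at 24 h and higher at 4 h, 8 h and 2 weeks. The ratio to miR-181a-5p was 2.09, 1.47 and 1.28 in control and 1.36, 1.73, 1.08 and 1.12 in SE, higher in SE at 8 h only. Per count of miR-126a-3p, an endothelial and platelet miRNA, it had 143 in control 4 h, where miR-126a-3p had 203 counts, and 41.1 to 85.8 in the other 6 libraries.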
